A study of Mus musculus with 4 samples.

Results

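Ly6a, Ly6c1, Ly6c2 and Ly6e encode small cell surface proteins of the lymphocyte antigen 6 (Ly6) family. They were chosen by name, as 4 of the 31053 genes counted, with earlier results of these libraries known, so their levels and differences are given as a description without a test. They were measured in 4114 T cells sorted from the meninges, the membranes that wrap the brain, and from the choroid plexus, the tissue that makes cerebrospinal fluid. Young mice were 10 weeks old and aged mice were 18 months old. All were female C57BL/6 mice, and the sources name no altered gene and no treatment for these samples. Each of the 4 libraries (meninges and choroid plexus of young mice, meninges and choroid plexus of aged mice) was pooled from 5 mice whose cells cannot be told apart. There was 1 library per condition, so no p-value is given. Every interval below covers counting error only and not the spread between mice. Intervals of levels and ratios rest on summed UMIs and also leave out the spread between cells. They are therefore too narrow where a few cells hold most of the UMIs.

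Ly6 proteins share a compact fold held by disulfide bonds and are tied to the outer leaflet of the cell membrane by a glycosylphosphatidylinositol (GPI) anchor. Ly6a encodes Sca-1, a marker of blood stem cells that mature T cells also carry after activation and after exposure to interferon. Ly6c1 and Ly6c2 encode the Ly-6C antigens, which are used to mark memory CD8 T cells, some naive T cells and inflammatory monocytes. Ly6e encodes a broadly expressed member of the family that is induced by type I interferon and is known in thymocytes. Endothelial cells and fibroblasts can also carry some of these genes.

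In the GENCODE annotation of GRCm38 the 4 genes lay within 156.92 kb of chromosome 15, at chr15:74955051-75111970. Ly6e (ENSMUSG00000022587) was on the plus strand at chr15:74955051-74959905. The other three were on the minus strand, with Ly6a (ENSMUSG00000075602) at chr15:74994877-74998031, Ly6c1 (ENSMUSG00000079018) at chr15:75044018-75048830 and Ly6c2 (ENSMUSG00000022584) at chr15:75108158-75111970. Each had its coding sequence in 3 exons.

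The first coding exon segment is printed for each gene, 5′ to 3′ on the gene's own strand from the start codon, because Ly6c1 and Ly6c2 differ most there and because libraries of 5′ ends read near it. Capitals in the lines of Ly6c1 and Ly6c2 mark the 6 of 70 bases at which these 2 differ. Capitals in the lines of Ly6a and Ly6e mark the 2 and 37 bases at which each differs from Ly6c1. The segments lie at chr15:75048442-75048511 (Ly6c1, minus strand), chr15:75111598-75111667 (Ly6c2, minus strand), chr15:74997535-74997604 (Ly6a, minus strand) and chr15:74957808-74957877 (Ly6e, plus strand).
Ly6c1: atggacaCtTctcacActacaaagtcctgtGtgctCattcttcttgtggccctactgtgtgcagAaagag
Ly6c2: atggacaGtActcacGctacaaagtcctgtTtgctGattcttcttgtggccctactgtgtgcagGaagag
Ly6a: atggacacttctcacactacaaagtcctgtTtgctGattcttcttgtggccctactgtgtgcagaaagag
Ly6e: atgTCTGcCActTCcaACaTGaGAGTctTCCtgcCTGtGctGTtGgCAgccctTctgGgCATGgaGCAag

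Over the whole coding sequence Ly6c1 and Ly6c2 were 97.7% identical, with 9 of 393 bases different. Their second coding segment of 117 bases did not differ at all, and the third differed at 3 of 206 bases. Ly6a was 81.8% identical to Ly6c1, whereas Ly6e was 49.5% identical to Ly6c1. Distinct stretches of 91 bases were taken from all annotated transcripts of each gene, 1764 for Ly6c1 and 2737 for Ly6c2. Of these, 12.6% of those of Ly6c1, 7.12% of those of Ly6c2 and 2.14% of those of Ly6a were also found in another of these genes, and 0 of 4500 of Ly6e. The Ly6c1 and Ly6c2 transcripts whose coding sequences are compared here had 844 and 822 bases, so their shared part can be larger. Reads from shared stretches cannot be given to 1 gene, so the levels of Ly6c1 and Ly6c2 are less certain than that of Ly6e. RefSeq promoters were at hand for Ly6c1 and Ly6c2 only. Neither held GAAA, any 2 bases and GAAA, the core of an interferon-stimulated response element, or TTCNNNGAA, the core of a gamma-activated site, on either strand of the 250 bases before its start, while 2.98% and 7.02% of 32851 promoters of that length did.

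Cells with 200 to 7000 genes and at most 5% mitochondrial unique molecular identifiers (UMIs, 1 per captured transcript) were kept, doublets called by Scrublet were removed, and a UMI of Cd3d, Cd3e or Cd3g was required. This left 1007, 605, 1408 and 1094 T cells in young meninges, young choroid plexus, then aged meninges, aged choroid plexus, the order used throughout. T cells were called CD4 where Cd4 but neither Cd8a nor Cd8b1 had a UMI (254, 160, 362 and 230 cells), and CD8 in the opposite case (254, 160, 281 and 473 cells). The sorted cells with UMIs of none of the 3 genes are called neither (481, 269, 735 and 358 cells). The study sorted CD4 and CD8 T cells, and a cell can lack a coreceptor UMI for want of depth. Neither coreceptor below thus refers to UMIs only. How many of these cells had a missed transcript was not tested. The libraries held 2295950 to 4262917 UMIs as deposited. Medians were 3198, 2978, 2312.5 and 2838.5 UMIs per T cell, and pairs of libraries shared 0 to 3 cell barcodes. Levels are summed UMIs of a gene per 1000000 summed UMIs of all genes (CPM), so that cells weigh by their depth. On this scale the 8 T cell markers checked, the Cd3 genes among them, summed to 4626 to 5627 CPM. Every log2 ratio in the text was taken after adding 10 CPM to both levels, and its interval is the exact 95% interval of the ratio without that addition. Folds are also ratios without that addition, so for low genes they exceed the log2 ratio printed beside them. A gene is called past the rule of size where the higher of 2 pools held at least 20 of its UMIs and the log2 ratio was at least 1 either way. Shares of cells with a UMI were taken after each cell had been thinned to 1000 UMIs.

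**Figure D1:**
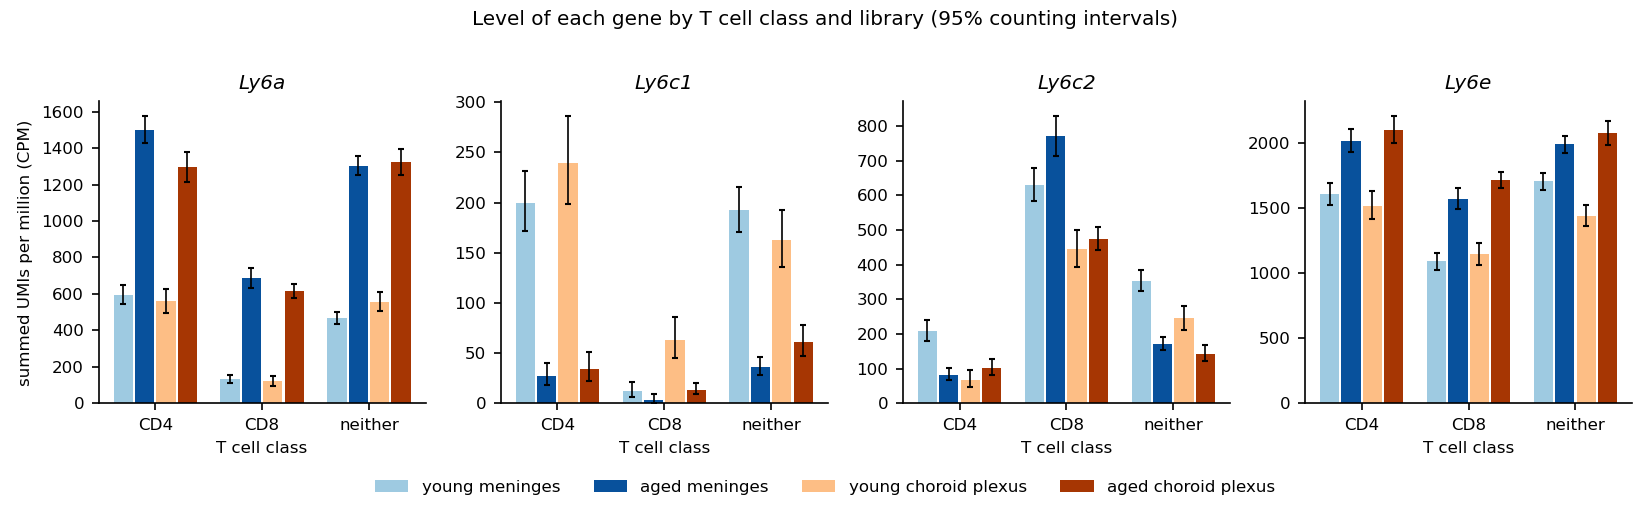
Level of each gene in CPM (linear axes that start at 0 and differ between genes) by T cell class, with 1 bar per library and exact Poisson 95% intervals as error bars. Ly6a stood higher in every aged pool than in the young pool of the same class and tissue, Ly6c1 lower, Ly6c2 was highest in CD8 T cells, and Ly6e was high throughout.

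Ly6a was more abundant in aged than in young T cells of both tissues and of every class. In CD4 T cells it was at 597 and 560 CPM in the young meninges and choroid plexus, and at 1500 and 1295 CPM in the aged ones. CD8 T cells had 134 and 121 CPM in the young and 685 and 614 CPM in the aged libraries. The cells with neither coreceptor had 467 and 558 CPM when young and 1303 and 1322 CPM when aged. Young and aged intervals did not overlap in any class. Aged CD8 T cells reached about the level of young CD4 T cells, since the intervals of aged choroid plexus CD8 (578 to 652 CPM) and young meningeal CD4 T cells (547 to 650 CPM) overlapped.

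As a ratio, Ly6a was 2.51-fold higher with age in meningeal CD4 T cells (log2 ratio 1.32, interval 1.19 to 1.48) and 2.31-fold in those of the choroid plexus (1.20, interval 1.02 to 1.41). The log2 ratio was 2.27 in meningeal CD8 T cells (interval 2.08 to 2.62) and 2.25 in those of the choroid plexus, a 5.06-fold higher level. The cells with neither coreceptor had log2 ratios of 1.46 and 1.23. Ly6a was past the rule of size in all 6 pairs of pools. Of all genes tested, 4.23%, 3.2% and 3.44% were past it in the higher direction in meningeal CD4, CD8 and neither T cells, and 7.27%, 2.46% and 4.62% in those of the choroid plexus. The Ly6a ratio exceeded that of 99.9% of the genes tested in choroid plexus CD8 T cells and of 95.2% in choroid plexus CD4 T cells, the highest and lowest of the 6 such shares. The median ratio over all genes tested lay between 0.04 and 0.16. Scaling by TMM factors, which discount abundant and strongly changed genes, lowered that median by 0.13 in CD4 T cells of the choroid plexus and by 0.12 in its cells with neither coreceptor, and the part of the called genes that were higher went from 79.1% to 66.5% and from 71.7% to 61.1%.

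The age difference of Ly6a was also one in the number of cells with a transcript. After thinning, 28.9% of young CD4 T cells carried a Ly6a UMI in each tissue, against 64.9% (exact interval 59.7 to 69.8%) and 65.1% (58.5 to 71.2%) of aged ones. Among CD8 T cells the share was 9.45% and 10.2% when young and 35.8% and 38.0% when aged. Without thinning these CD8 shares were 18.1%, 26.2%, 54.4% and 63.0%. No cell type that should lack Ly6a was sorted beside these cells, so a share from free RNA could not be measured. Without the 5 cells that held most Ly6a UMIs in each pool the log2 ratios were 1.48 and 1.49 in CD4 and 2.77 and 2.63 in CD8 T cells of the meninges and choroid plexus. Those cells held 40.1% of the Ly6a UMIs of young and 11.6% of those of aged meningeal CD8 T cells. Leaving them out thus takes a larger part of the young level, so these ratios are no check of the difference.

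Ly6e had the most UMIs of the 4 genes in every pool, and its level differed between ages by less than the rule of size. It was at 1607 and 1520 CPM in young CD4 T cells of the meninges and choroid plexus, and at 2015 and 2101 CPM in aged ones. CD8 T cells had 1090 and 1144 CPM when young and 1573 and 1714 CPM when aged. The cells with neither coreceptor had 1705 and 1440 CPM when young and 1989 and 2076 CPM when aged. All 6 aged pools were above the young pool of the same class and tissue beyond counting error, yet none was past the rule of size. The log2 ratios ranged from 0.22 (neither, meninges) to 0.58 (CD8, choroid plexus). The meninges had 0.53 in CD8 T cells (interval 0.42 to 0.64) and 0.32 in CD4 T cells (interval 0.23 to 0.43), and these intervals overlapped. Scaling by TMM factors left 0.21 in meningeal and 0.31 in choroid plexus CD4 T cells. After thinning, 62.2 to 71.5% of the young cells of a class held a Ly6e UMI, and 72.3 to 81.7% of the aged cells.

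Ly6c1 went the other way, and was lower in aged T cells. CD4 T cells had 200 and 240 CPM in the young meninges and choroid plexus and 27.7 and 34.6 CPM in the aged ones. The cells with neither coreceptor had 193 and 162 CPM when young and 36.4 and 61.1 CPM when aged. CD8 T cells had little Ly6c1 in all 4 libraries, at 12.3, 63.0, 3.31 and 13.8 CPM. The 4 pools with most Ly6c1 were thus the young CD4 T cells and the young cells with neither coreceptor, with intervals that overlapped between neighbours in the order.

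In CD4 T cells Ly6c1 was 7.22-fold lower with age in the meninges (log2 ratio −2.48, interval −3.48 to −2.27) and 6.92-fold lower in the choroid plexus (−2.48, interval −3.47 to −2.16). The ratio was −2.13 and −1.28 in the cells with neither coreceptor and −1.62 in choroid plexus CD8 T cells (24 against 40 UMIs). In meningeal CD8 T cells Ly6c1 had only 3 and 13 UMIs and was not tested by the rule of size, with a ratio of −0.74 and an interval from −4.34 to −0.03. Ly6c1 was past the rule in the other 5 pairs. Of all genes tested, 1.86%, 1.83% and 1.42% were past it in the lower direction in meningeal CD4, CD8 and neither T cells, and 1.92%, 0.872% and 1.83% in those of the choroid plexus. Only 0.119% of the genes tested had a lower ratio than Ly6c1 in meningeal CD4 T cells. After thinning, the share of CD4 T cells with a Ly6c1 UMI was 15.8% (interval 11.5 to 20.9%) and 17.0% (11.5 to 23.7%) when young, and 1.12% (0.307 to 2.85%) and 3.06% (1.24 to 6.20%) when aged. The 12 aged meningeal CD4 T cells with the gene held 28 UMIs, and the 5 fullest of them 71.4%.

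Ly6c2 was highest in CD8 T cells at both ages, and its level there differed little with age. CD8 T cells had 630 and 444 CPM in the young meninges and choroid plexus and 770 and 475 CPM in the aged ones. CD4 T cells had 209, 68.4, 83.0 and 103 CPM. The cells with neither coreceptor had 353, 245, 172 and 143 CPM. In all 4 libraries CD8 T cells were above CD4 T cells, by log2 ratios of 1.55, 2.53, 3.07 and 2.11. With age the CD8 level was 0.29 higher on the log2 scale in the meninges (interval 0.13 to 0.44) and 0.09 in the choroid plexus (interval −0.10 to 0.30). The thinned share of CD8 T cells with a Ly6c2 UMI was 24.4%, 24.8%, 28.8% and 21.5%, with overlapping intervals between young and aged cells of a tissue.

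In CD4 T cells Ly6c2 rested on few cells. Its UMIs came from 28, 5, 22 and 20 cells, and the 5 fullest held 39.5%, 100%, 70.2% and 54.1% of them. The aged over young ratio was −1.23 in the meninges (interval −1.72 to −0.95), past the rule of size in the lower direction, and 0.52 in the choroid plexus (interval −0.02 to 1.21). Without the 5 fullest cells of each pool the ratios became −2.00 and 2.55, the latter against a young pool left without a Ly6c2 UMI. Where a CD4 or CD8 T cell needed at least 2 UMIs of its coreceptor, they were −3.07 and 2.85. In the cells with neither coreceptor the ratios were −0.997 (interval −1.25 to −0.83) and −0.74 (interval −1.10 to −0.46), both outside the rule of size.

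**Figure D2:**
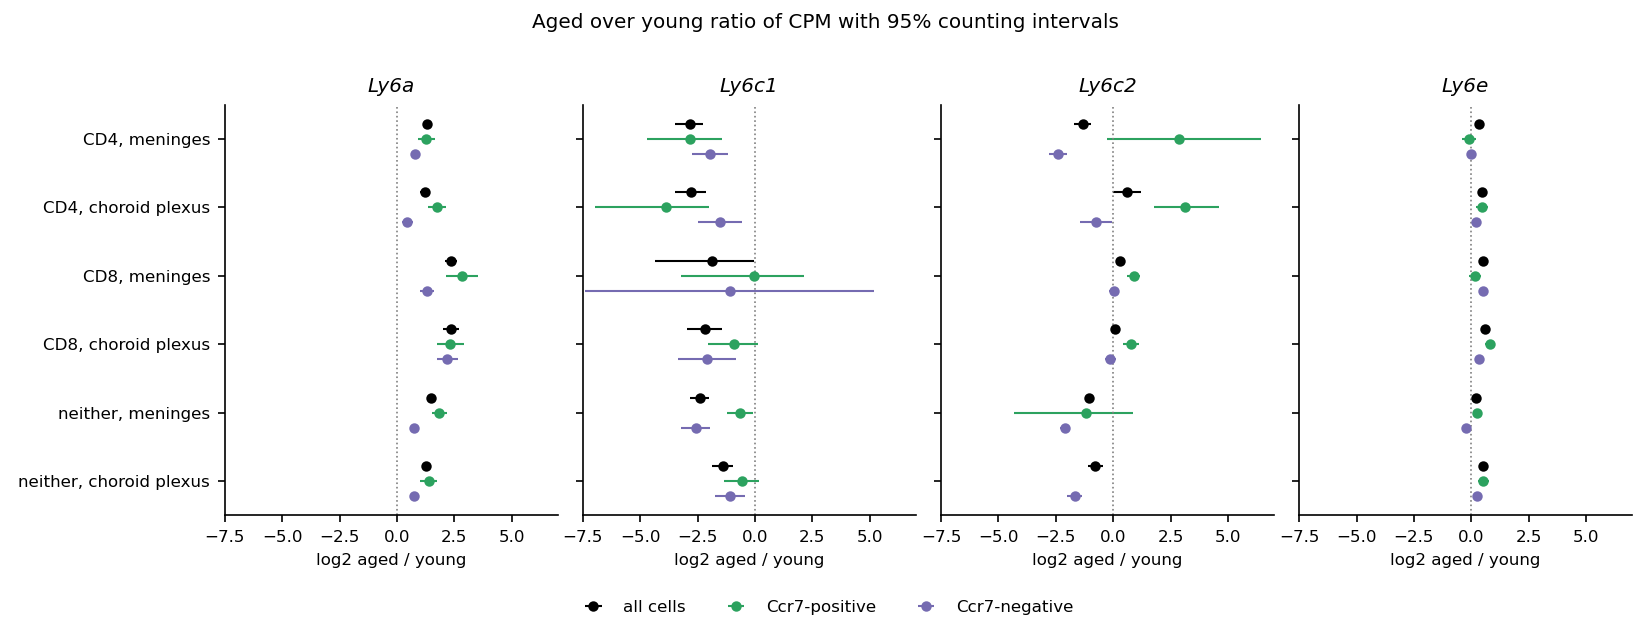
Log2 ratio of aged over young CPM without a pseudocount (x axis) by class and tissue (y axis), for all cells (black), cells with a Ccr7 UMI (green) and cells without one (purple), with exact 95% intervals. All Ly6a intervals lie above 0, all Ly6e points lie between −0.24 and 0.81, and the Ly6c2 points of all CD4 T cells fall on opposite sides in the 2 tissues. The Ccr7-positive cells of the choroid plexus with neither coreceptor had 0 Ly6c2 UMIs at both ages and have no point.

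Ccr7, a chemokine receptor of naive and central memory T cells, was used to split each pool into cells with and without its UMI. The share of cells with a Ccr7 UMI was 47.5 to 64.6% in the young pools and 8.90 to 11.3% in the aged ones. Ccr7-positive cells held 56.6% of all UMIs of young and 10.2% of those of aged meningeal CD4 T cells, so levels were also taken within each gate and at an equal share of both. A cell can lack a Ccr7 UMI for want of depth, so the gates do not hold cell state equal. In young meningeal CD4 T cells the Ccr7-positive share was 57.5%, and 38.3% after thinning. In aged meningeal CD8 T cells the medians were 4856 UMIs in Ccr7-positive and 2704 UMIs in Ccr7-negative cells.

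Ly6a was higher with age on both sides of the gate. In Ccr7-positive CD4 T cells it went from 359 to 871 CPM in the meninges and from 330 to 1106 CPM in the choroid plexus. In Ccr7-negative ones it went from 908 to 1572 CPM and from 966 to 1324 CPM. The log2 ratios of the Ccr7-negative cells, 0.79 and 0.45, were below those of the Ccr7-positive cells, 1.26 and 1.71, with intervals that overlapped in the meninges and lay apart in the choroid plexus. Ccr7-positive CD8 T cells of the meninges had 49.3 CPM when young and 346 CPM when aged (2.59, interval 2.12 to 3.51), and Ccr7-negative ones 294 and 736 CPM (1.29, interval 1.03 to 1.63). In the choroid plexus the CD8 ratios were 2.20 and 2.10 in the same order. The interval lay above 0 in 6 of 6 Ccr7-positive and 6 of 6 Ccr7-negative pairs. Had aged meningeal CD4 T cells held the young share of UMIs from Ccr7-positive cells, their Ly6a level would be 1175 CPM and the ratio 0.97 in place of 1.32, and for CD8 T cells 1.77 in place of 2.27.

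Ly6c1 was lower with age in both gates of CD4 T cells. In the meninges it went from 275 to 38.7 CPM in Ccr7-positive cells (138 and 4 UMIs) and from 101 to 26.4 CPM in Ccr7-negative ones (−1.61, interval −2.74 to −1.17). In the choroid plexus the Ccr7-positive cells held 100 UMIs when young and 2 when aged, a log2 ratio of −3.38 with an interval from −6.95 to −2.00. The 70 aged Ccr7-positive meningeal cells with neither coreceptor were the aged pool with most Ly6c1, at 158 CPM against 246 CPM when young (−0.61, interval −1.21 to −0.10), while the Ccr7-negative cells of that class went from 117 to 19.7 CPM (−2.10). Over all classes the Ly6c1 interval lay below 0 in 3 of 6 Ccr7-positive and 5 of 6 Ccr7-negative pairs.

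Ly6e differed by gate more than by age in meningeal CD4 T cells. Ccr7-positive CD4 T cells of the meninges had 1208 CPM when young and 1132 CPM when aged (−0.09, interval −0.39 to 0.19), and Ccr7-negative ones 2128 and 2115 CPM (−0.01, interval −0.13 to 0.11). With the young share of Ccr7-positive cells the aged over young ratio of meningeal CD4 T cells was −0.04 in place of 0.32. The CD8 ratio was 0.29 in place of 0.53, and Ccr7-negative CD8 T cells went from 1149 to 1633 CPM. The choroid plexus kept a larger difference, with 0.35 in CD4 and 0.54 in CD8 T cells at the young share. In Ccr7-negative meningeal cells with neither coreceptor Ly6e was lower with age, at 2432 and 2066 CPM (−0.23, interval −0.32 to −0.15).

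**Figure D3:**
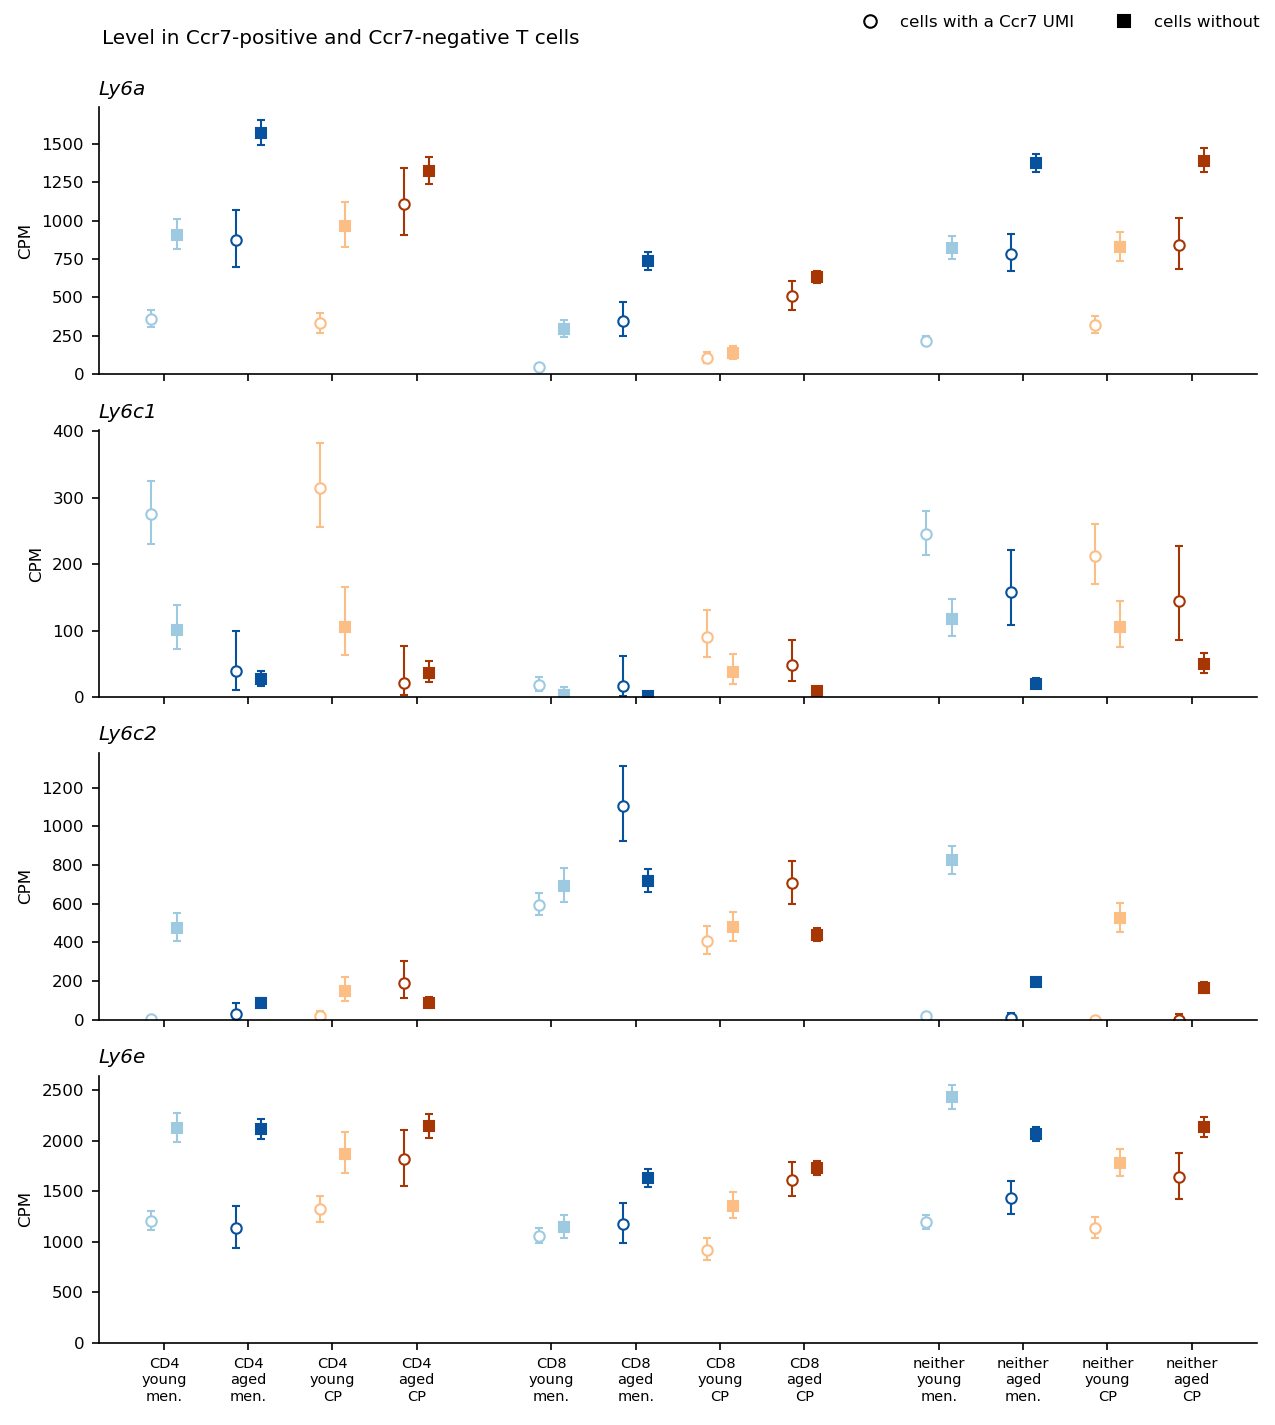
Level in CPM (linear axes) of each gene in T cells with (open circles) and without (filled squares) a Ccr7 UMI, for 3 classes in 4 libraries (men., meninges, CP, choroid plexus; light colours young, dark colours aged), with exact Poisson 95% intervals. Squares lie above circles for Ly6a and Ly6e, circles above squares for Ly6c1 in the young libraries, and Ly6c2 is near 0 in most Ccr7-positive pools of CD4 T cells and of cells with neither coreceptor, while those of CD8 T cells stand at 409 to 1107 CPM.

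Within the young libraries the 4 genes split by Ccr7. Ly6a was higher in Ccr7-negative CD4 T cells by log2 ratios of 1.32 (meninges) and 1.52 (choroid plexus), and in CD8 T cells by 2.36 and 0.40 (interval −0.26 to 1.13). Ly6c1 was lower in Ccr7-negative CD4 T cells, at 101 against 275 CPM in the meninges (−1.35, interval −1.99 to −0.92) and 106 against 315 CPM in that of the choroid plexus (−1.48, interval −2.36 to −0.85). With Lef1 as the gate in place of Ccr7 these ratios were −0.52 and, reversed, 0.0586. In choroid plexus CD8 T cells Ly6c1 was at 37.0 against 90.2 CPM (−1.09, 12 and 28 UMIs), and in meningeal CD8 T cells 1 and 12 UMIs were too few for the rule. Ly6e was higher in Ccr7-negative CD4 T cells by 0.81 and 0.50 and in CD8 T cells by 0.12 (interval −0.06 to 0.29) and 0.55.

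Ly6c2 in young CD4 T cells came mostly from cells without Ccr7. In the meninges 183 of its UMIs lay in 108 Ccr7-negative cells and 2 in 146 Ccr7-positive cells (log2 ratio 5.12, interval 5.03 to 9.96). In the choroid plexus there were 27 UMIs in 3 cells and 7 UMIs in 2 cells (2.33, interval 1.54 to 4.22), and leaving out the 5 cells of each gate with most Ly6c2 UMIs left none. Among young meningeal cells with neither coreceptor the levels were 824 and 21.5 CPM. Among those of the choroid plexus 198 UMIs lay in Ccr7-negative and 0 in Ccr7-positive cells, at least 75.0-fold higher against a floor of 3 UMIs. In young CD8 T cells Ly6c2 was at 694 against 596 CPM in the meninges (0.22, interval −0.01 to 0.45) and 478 against 409 CPM in the choroid plexus (0.22, interval −0.12 to 0.58). These ratios were 0.87 and 0.74 after thinning, 0.48 and 0.74 as the mean of each cell's CPM, and 1.13 and 0.80 with Lef1 as the gate in place of Ccr7. Members past the rule of size in the young CD4 gates of both tissues were Ly6a and Ly6c2 in the higher and Ly6c1 in the lower direction. Of all genes tested, 6.26% were higher and 2.04% lower in meningeal CD4 T cells, and 2.67% higher and 2.46% lower in those of the choroid plexus. Among CD8 T cells, where Ly6a in the meninges and Ly6c1 in the choroid plexus were past the rule (the latter reversed to 0.28 after thinning), 2.77% were higher and 1.17% lower in the meninges, and 7.96% higher and 2.56% lower in the choroid plexus.

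In aged CD8 T cells Ly6c2 was higher in the few cells with a Ccr7 UMI. The level was 1107 CPM in 25 Ccr7-positive and 719 CPM in 256 Ccr7-negative cells of the meninges (−0.62, interval −0.90 to −0.34), and 705 CPM in 45 and 440 CPM in 428 cells of the choroid plexus (−0.67, interval −0.93 to −0.42). Compared with young Ccr7-positive CD8 T cells this was 0.88 and 0.77 higher on the log2 scale, while Ccr7-negative CD8 T cells differed by 0.05 and −0.12, with intervals that held 0. Without the 5 fullest cells of each gate the meningeal ratio between gates was 0.12, so its sign turned with those cells. Ccr7-negative CD4 T cells of the meninges, by contrast, had 476 CPM of Ly6c2 when young and 89.1 CPM when aged (−2.29, interval −2.81 to −2.03).

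The order of the 12 pools was different for each gene. Ly6a was highest in aged meningeal CD4 T cells and lowest in young choroid plexus CD8 T cells, whose interval overlapped that of young meningeal CD8 T cells. Ly6c1 was highest in young choroid plexus CD4 T cells and lowest in aged meningeal CD8 T cells, where the 3 lowest pools overlapped as neighbours. Ly6c2 was highest in aged meningeal CD8 T cells, apart from the next pool, young meningeal CD8 T cells. Ly6e was highest in aged choroid plexus CD4 T cells, and the 4 highest pools, all aged CD4 or neither, overlapped as neighbours. CD8 T cells had less Ly6a than CD4 T cells in every library (log2 ratios −2.07, −2.12, −1.12 and −1.06), less Ly6c1 (−3.23, −1.77, −1.50 and −0.91) and less Ly6e (−0.56, −0.41, −0.35 and −0.29).

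For Ly6a the tissues differed less than the ages in all cells of a class. The choroid plexus over meninges ratio of Ly6a lay between −0.21 and 0.25 in the 6 pairs of pools. In young CD8 T cells it was 0.93 in Ccr7-positive cells (interval 0.32 to 1.80) and −1.03 in Ccr7-negative cells (interval −1.62 to −0.57), which lie on opposite sides of the −0.14 of all cells. The ratio of Ly6e lay between −0.24 and 0.12. Ly6c1 in young CD8 T cells was higher in the choroid plexus, at 63.0 against 12.3 CPM (1.71, interval 1.43 to 3.38), and 5 cells held 60.0% and 84.6% of those UMIs. Ly6c2 was lower in the choroid plexus in CD8 T cells of both ages (−0.49, interval −0.71 to −0.30, and −0.69, interval −0.85 to −0.55) and in young CD4 T cells (−1.48, interval −2.18 to −1.08). In aged CD4 T cells it was 0.28 higher, with an interval from −0.17 to 0.77.

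Few cells held both Ly6c1 and Ly6c2. Without thinning, 430 of the 4017 cells of the 3 classes had a Ly6c1 UMI and 687 a Ly6c2 UMI, and 36 had both, which is 8.37% of the first and 5.24% of the second group. In young meningeal CD4 T cells the counts were 68, 28 and 5, and in young choroid plexus CD4 T cells 47, 5 and 0. In meningeal CD8 T cells 7 cells had Ly6c1, 106 had Ly6c2 and 0 had both when young, and 3, 111 and 3 when aged. Each gene was found in few cells of most classes, so the small overlap is not read as exclusion. After thinning, 3 young meningeal CD4 T cells held both, where the product of the shares of the genes gives 3.16, and 6 of those with neither coreceptor, where it gives 6.45. The 3 aged CD8 T cells of the meninges with Ly6c1 thus all held Ly6c2 too, with 1 Ly6c1 UMI each. A read of 1 copy given to the other would put both names in 1 cell, and its part in these few was not tested. Between 2.17 and 9.67% of the cells of a pool had no UMI of any of the 4 genes.

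**Figure D4:**
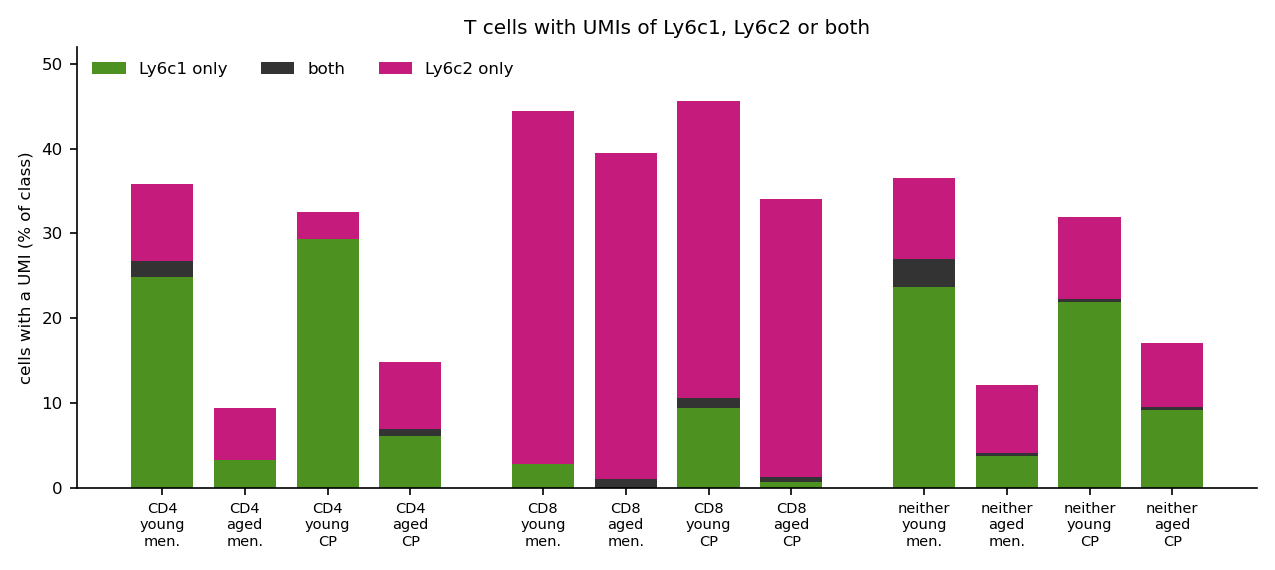
Share of the cells of each class and library (y axis, percent, not thinned) with a UMI of Ly6c1 alone (green), of both Ly6c1 and Ly6c2 (black) or of Ly6c2 alone (magenta); men., meninges, CP, choroid plexus. Young CD4 T cells are mostly green, CD8 T cells mostly magenta at both ages, and the black part is small in all 12 pools.

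Cells with either transcript also differed in other genes, given here as levels in cells with and without a UMI of the member. In young choroid plexus CD4 T cells, the 47 cells with Ly6c1 held 0 UMIs of Ccl5, a chemokine of effector T cells, whereas the 113 cells without had 709 CPM. S100a6, a calcium-binding protein of activated T cells, had 1 UMI in the cells with Ly6c1 and was at 604 CPM in those without. In the aged cells with neither coreceptor, those with Ly6c1 had 574 CPM (meninges, 30 cells) and 621 CPM (choroid plexus, 34 cells) of Igfbp4, a gene of naive T cells, against 42.2 and 25.1 CPM in cells without. In these aged cells Ly6c1 and Igfbp4 thus stood together. In young meningeal CD4 T cells, the 28 cells with Ly6c2 had 4783 CPM of Ccl5 and 1109 CPM of Nkg7, a cytotoxic granule protein, against 447 and 90.4 CPM. Their Tcf7, a transcription factor of naive and memory T cells, was at 99.0 against 494 CPM.

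The cells with Ly6a changed sides with age for Ccl5. In young meningeal CD4 T cells, Ccl5 was at 1401 CPM in the 134 cells with Ly6a and 321 CPM in the 120 without. In aged ones it was at 2280 CPM in the 291 cells with and 5736 CPM in the 71 without. The choroid plexus showed the same turn, with 849 against 68.2 CPM when young and 1434 against 3132 CPM when aged. Eomes, a transcription factor of effector and exhausted CD8 T cells, was at 60.3 CPM in aged meningeal CD8 T cells with Ly6a and 145 CPM in those without. Isg15, an interferon-stimulated gene, was higher in meningeal CD8 T cells with Ly6a at both ages, at 226 against 64.9 CPM when young and 311 against 106 CPM when aged. Ifit3, also interferon-stimulated, was at 185 against 18.6 CPM and 154 against 41.9 CPM. In young choroid plexus CD8 T cells Isg15 was at 71.4 CPM with and 103 CPM without Ly6a, with overlapping intervals.

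T cells were also grouped by Cxcr6, a chemokine receptor of tissue-resident cells, by Gzmk, which encodes granzyme K, by Foxp3, the factor of regulatory T cells, and by Tnfsf8, which encodes CD153. Cells with a UMI of each gene were compared with the other cells of the same class and library, where at least 20 cells had one, and also over all T cells of a library, the double-coreceptor cells included. The classes are given first, because CD8 T cells have less Ly6a and more Ly6c2 than the others and take different shares of each group.

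Cells with Cxcr6 had more Ly6a than the other cells of their class in all 4 libraries. In young meningeal CD4 T cells the levels were 1436 and 357 CPM (49 and 205 cells), and in aged ones 1669 and 1406 CPM (log2 ratio 0.25, interval 0.10 to 0.40). CD8 T cells of the aged meninges had 914 against 413 CPM (1.13, interval 0.89 to 1.41), and those of the aged choroid plexus 656 against 522 CPM (0.33, interval 0.13 to 0.53). Over all T cells of the aged choroid plexus the levels were 978 and 1011 CPM, with an interval of the log2 ratio from −0.14 to 0.05. Ly6c2 was higher with Cxcr6 in young meningeal CD4 T cells (665 against 78.4 CPM) and CD8 T cells (1147 against 401 CPM). In aged CD8 T cells it was higher with Cxcr6 in the meninges, at 963 against 541 CPM, and lower in the choroid plexus, at 433 against 566 CPM (−0.38, interval −0.59 to −0.18).

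With Gzmk, Ly6a was higher in CD8 T cells and lower in the cells with neither coreceptor in the aged meninges. The difference between the classes was not tested. CD8 T cells with Gzmk had 512 CPM of Ly6a against 59.0 CPM in the young meninges (2.92, interval 2.61 to 3.64, 32 and 222 cells). In the aged meninges they had 814 against 502 CPM (0.69, interval 0.45 to 0.95). CD8 T cells of the aged choroid plexus had 608 and 622 CPM, with an interval from −0.21 to 0.14. In the aged meningeal cells with neither coreceptor Ly6a was lower with Gzmk, at 982 against 1413 CPM (−0.52, interval −0.68 to −0.37). CD4 T cells had 1354 against 1535 CPM there (interval −0.38 to 0.01). Over all T cells Ly6a was at 904 against 360 CPM in the young and 967 against 1319 CPM in the aged meninges. Ly6c1 over all T cells with Gzmk had 1 and 5 UMIs there, against 151 and 38.1 CPM in other cells, with intervals of the log2 ratio from −10.54 to −2.75 and from −4.90 to −1.97. Within the aged meningeal CD8 T cells Ly6c1 had 1 and 2 UMIs with and without Gzmk, with an interval from −7.38 to 2.76, and within the cells with neither coreceptor 2 and 61 UMIs (interval −6.46 to −1.47). Ly6c2 in aged CD8 T cells was lower with Gzmk, at 682 against 894 CPM in the meninges and 340 against 631 CPM in the choroid plexus (−0.87, interval −1.10 to −0.69).

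Cells with Foxp3 had more Ly6e than the other cells of their class in each pool with enough of them. In the aged meninges the levels were 2579 and 1880 CPM in CD4 T cells (0.45, interval 0.31 to 0.60) and 2952 and 1857 CPM in the cells with neither coreceptor (0.67, interval 0.54 to 0.79). In young meningeal cells with neither coreceptor they were 2733 and 1640 CPM. Ly6c2 was at 5.14 CPM, from 1 UMI, in aged meningeal CD4 T cells with Foxp3 against 101 CPM in the others, with an interval of the log2 ratio from −9.62 to −1.79. In the aged meningeal cells with neither coreceptor it was at 153 against 175 CPM (−0.18, interval −0.77 to 0.34). Over all T cells of that library, where CD8 T cells are among the others, it was at 80.7 against 323 CPM. No library had 20 cells with Trdc, and the young choroid plexus had under 20 cells with Foxp3.

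Cells with Tnfsf8 had more Ly6a in aged CD4 T cells, at 1821 against 1377 CPM in the meninges (0.40, interval 0.25 to 0.56) and 1507 against 1213 CPM in the choroid plexus (0.31, interval 0.11 to 0.51). Aged CD8 T cells had 531 against 708 CPM in the meninges (−0.41, interval −0.82 to −0.03) and 637 against 610 CPM in the choroid plexus (interval −0.18 to 0.30). In young CD8 T cells Ly6a was lower with Tnfsf8, on 5 and 9 UMIs (intervals −3.42 to −0.52 and −2.23 to −0.03). Over all T cells the young choroid plexus had 319 against 422 CPM and the young meninges 393 against 399 CPM.

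**Figure D5:**
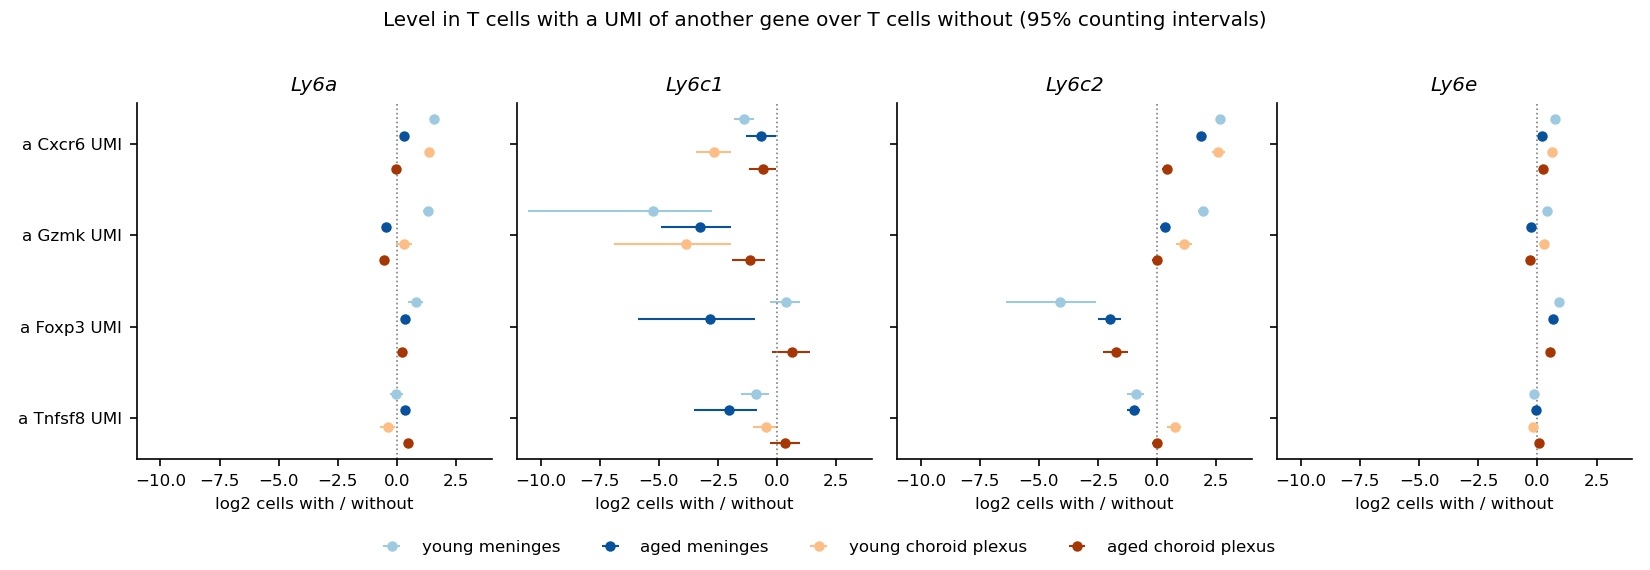
Log2 ratio, without a pseudocount, of the level of each gene in T cells with a UMI of Cxcr6, Gzmk, Foxp3 or Tnfsf8 over that in the other T cells of the library (x axis), with exact 95% intervals and 1 colour per library; groups under 20 cells have no point. The CD4, CD8, neither and double-coreceptor cells are pooled here. Cells with Foxp3 lie above 0 for Ly6e and below 0 for Ly6c2, and cells with Gzmk lie on opposite sides of 0 for Ly6a in the young and aged meninges, whereas CD8 T cells alone lie above 0 at both ages (2.92 and 0.69, from levels with 10 CPM added).

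Over the 12 pools, which share libraries and depth, the genes with levels most like each member were listed by Pearson's r of log2 CPM among 3383 genes. For Ly6a they were Itm2b (r = 0.97), Emp3 (0.97) and Pkp3 (0.97). For Ly6e they were Itm2b (0.99), Pdia3 (0.97) and Fth1 (0.97). Ly6a and Ly6e were also like each other (r = 0.96). For Ly6c1 they were Cd2ap (0.97), Pdlim4 (0.96) and St8sia6 (0.96). For Ly6c2 they were Plac8 (0.93) and the killer cell lectin-like receptor genes Klrd1 (0.92) and Klrc1 (0.91). Ly6c1 and Ly6c2 were not like each other (r = −0.46).

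No other listed gene of the Ly6/uPAR family had enough UMIs for the rule of size. Of the 33 listed, 31 were in the files, and none reached 20 UMIs in any pool compared. The nearest was Ly6k with 19 UMIs in aged choroid plexus CD8 T cells, where Ly6c1 had 24. Of 12 other GPI-anchored proteins of T cells, 2 of 6 tested were higher with age in meningeal CD4 T cells, where 4.23% of all genes tested were. These were Izumo1r (log2 ratio 1.15) and Nt5e, the ecto-enzyme CD73 (1.32). None of 7 tested was past the rule in CD8 T cells of either tissue, 3 of 9 were higher in the meningeal cells with neither coreceptor (3.44% of all genes), and in the choroid plexus Nt5e, 1 of 5 tested, was higher in CD4 T cells (1.10; 7.27% of all genes). The choroid plexus cells with neither coreceptor had, of 7 tested, Izumo1r higher (1.08; 4.62% of all genes) and Cd55 lower (−1.19; 1.83% of all genes). Of the genes of GPI anchor synthesis, 7 to 13 were tested in a pair of pools and 0 were past the rule in any.

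Ly6a and Ly6e are known to respond to interferon, and 26 interferon-stimulated genes were set beside them. In the meninges 4 of 26 tested were higher with age in CD4 T cells, namely Isg15 (1.12), Ifit1 (1.60), Ifit3 (1.29) and Mx1 (1.14), and 0 were lower. Of 25 tested in CD8 T cells 5 were higher, with Isg20 (1.11) beside the same 4 genes, and 4 of 25 in the cells with neither coreceptor. Of all genes tested 4.23%, 3.2% and 3.44% were higher in these pools. The median ratios of the list there were 0.51, 0.43 and 0.41, against 0.08, 0.04 and 0.05 over all genes tested. In the choroid plexus 2 were higher and 1 lower of 21 in CD4 T cells, 1 higher and 1 lower of 25 in CD8 T cells, and 0 higher and 1 lower of 24 in the cells with neither coreceptor. Of all genes tested 7.27%, 2.46% and 4.62% were higher and 1.92%, 0.872% and 1.83% lower. The medians were 0.13, −0.01 and −0.08 there, against 0.16, 0.12 and 0.13 over all genes tested. Of 10 naive genes 8 to 10 were lower with age in each pair of pools and 0 were higher, and of 12 to 13 memory and effector genes tested 5 to 10 were higher and 0 were lower. Of all genes tested 0.872 to 1.92% were lower and 2.46 to 7.27% higher in these pairs.

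Endothelial and fibroblast markers, of cells that also carry Ly6 genes, were low. The 7 endothelial markers summed to 15.8 to 74.5 CPM in young and 14.4 to 28.6 CPM in aged pools, with Cldn5, Cdh5 and Esam at 0 in all 12. The highest sums were in young pools, where Ly6c1 was also highest. In the young choroid plexus all of these UMIs were of 1 of the 7 markers, Pecam1. In the young meninges only Pecam1 and Egfl7 were found. Whether these UMIs came from endothelial cells was not tested. A marker UMI was found in a larger share of the young meningeal CD4 T cells with Ly6c1 (17 of 68) than of those without (15.1%). In the young choroid plexus the share was smaller with Ly6c1, at 17.0% against 22.1%. Fibroblast markers reached at most 1.15 CPM and neutrophil markers were at 0. The monocyte and macrophage markers summed to 7.57 to 48.3 CPM in young and 10.9 to 168 CPM in aged pools. Without any T cell that held a UMI of these 4 lists, the aged over young ratio of Ly6c1 was −2.36 and −2.84 in CD4 T cells of the meninges and choroid plexus, that of Ly6a was 1.24 and 1.19, and that of Ly6c2 in meningeal CD4 T cells was −1.89. Natural killer cell markers summed to 6.04 to 74.1 CPM in young and 4.01 to 22.2 CPM in aged pools. They were found in 33.9% of the young meningeal cells with neither coreceptor that held Ly6c2, against 1.43% of the others, and in 21.4% against 0.442% of the CD4 T cells. Of the markers Ncr1, Klrb1c and Tyrobp, Ncr1 was at 0 in these cells with neither coreceptor. Tyrobp was at 0 in the CD4 T cells, which held 7 marker UMIs in all. Whether the cells with these UMIs were natural killer cells was not tested. Without T cells that held a natural killer cell marker UMI, the Ly6c2 ratio of the meningeal cells with neither coreceptor was −0.56 in place of −0.997. B and plasma cell markers summed to 67.4 to 264 CPM, red cell markers to at most 483 CPM and choroid plexus epithelium markers to at most 175 CPM, and their part in the levels was not tested.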

How the data were processed

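Cells of 4 droplet libraries of 5′ transcript ends, 1 per condition, were analysed. The authors deposited raw counts of UMIs for each gene in each cell, without normalization, from Cell Ranger (3.1.0 in the matrix headers, 5.1.0 in the submitters' notes, which also name STAR and build mm10). The members, gene lists, gates and alternatives were chosen with earlier results of these data known. Deposited cells numbered 1111, 718, 1695 and 1277. After the limits on genes and mitochondrial UMIs, Scrublet (scanpy 1.11.5) marked 16, 22, 0 and 5 doublets. It marked 0 of 1436 cells in the aged meninges, so doublets can remain there, and removing the highest 5% of scores was an alternative. Cells with Cd4 and Cd8 UMIs together (18, 16, 30 and 33) entered no class. Levels have exact Poisson intervals, ratios exact conditional binomial intervals and shares exact Clopper-Pearson intervals. A log2 ratio after adding 10 CPM understates the change of low genes, and folds were taken without that addition. Genes named were the 4 members, the 3 genes most like each and members of fixed lists past the rule of size. Genes set beside members in the same cells, and Ly6k, were chosen after their values were seen. Coordinates came from GENCODE vM21 and promoters from RefSeq GRCm38.p6, with 2 of 4 members matched. Calls by the rule of size were checked on simulated counts that held counting error only. That check had no spread between cells or mice, so it cannot give the rate of false calls in these data. Python 3.11.15, numpy 2.4.6, pandas 2.3.3, scipy 1.17.1 and matplotlib 3.10.9 were used, and edgeR gave TMM factors as a scale only.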

Additional observations from a re-analysis of the deposited data

Results flagged for a closer look

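Ly6c2 stood out because its ratio went opposite ways between classes, ages or gates, and none of these differences was tested. The aged over young log2 ratio in the meninges was −1.23 for CD4 T cells, whereas CD8 T cells had 0.29. The Ccr7-negative over Ccr7-positive ratio in the aged meninges was 1.34 in CD4 T cells, on 81 and 3 UMIs, and −0.62 in CD8 T cells. Without the 5 fullest cells of each gate the CD8 ratio was 0.12, and with Lef1 as the gate 0.10. In choroid plexus CD4 T cells the ratio with Ccr7 as the gate was 2.33 when young and −1.02 when aged. These rested on 27 and 7 UMIs and on 56 and 18 UMIs. Without the 5 fullest cells of each gate they were 0 and 2.04, and the aged one was 0.53 with Lef1.

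Among the cells left out for want of a Cd3 UMI, the 7 of the aged choroid plexus held 19 Ly6c1 UMIs, 17 of them in 1 cell. The same 7 cells held 30 UMIs of endothelial markers. The cells without a Cd3 UMI in the other libraries (12, 4 and 28 cells) held 0 Ly6c1 UMIs.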

How the results depend on the processing

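Each library stands alone, and no replicate was left out. No paired analysis was possible because there was 1 library per condition and no result comes from a test. Of the aged over young ratios under the alternatives, 247 kept their direction and stayed within the counting interval, 51 moved and 2 reversed; of the Ccr7-negative over Ccr7-positive ratios these were 258, 48 and 10. The tissue ratios moved 6 and the class ratios 12 times, with 0 reversals. Shares of cells with a UMI moved in 65 of 96 cases, 38 of 48 without thinning and 27 of 48 at 1500 UMIs. Unless a cause follows from the setting itself, the cause was not tested. Ly6a stayed higher and Ly6c1 lower with age in CD4 T cells of both tissues under every alternative run. Leaving out the 5 cells richest in the gene is no check of this, because it takes a larger part of the lower pool. In meningeal CD4 T cells these cells held 71.4% of the aged and 26.0% of the young Ly6c1 UMIs.

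Aged over young. With Ly6c1 and Ly6c2 summed, which handles reads given to the wrong copy but not reads given to neither, the ratio was −1.79 in CD4 T cells of the meninges and −1.11 in those of the choroid plexus, where Ly6c2 alone had 0.52, and 0.26 and −0.0536 in CD8 T cells, the first reversed from −0.74 of Ly6c1. A pseudocount of 50 CPM gave Ly6c1 in CD4 T cells −1.69 and −1.77. After thinning cells to 1000 UMIs, Ly6a in meningeal CD8 T cells was at 1.96, and in the choroid plexus Ly6c2 was at 1.52 in CD4 and −0.21 in CD8 T cells, while Ly6e was at 0.65 in CD4 T cells. With at least 2 coreceptor UMIs per cell, Ly6a in CD4 T cells was at 1.10 and 0.77, Ly6c2 at −3.07 and 2.85, Ly6e in choroid plexus CD4 T cells at 0.16, and Ly6c1 in meningeal CD8 T cells reversed to 0.32. For Ly6e in CD4 T cells TMM factors gave 0.21 and 0.31, and a total without mitochondrial, ribosomal, receptor and immunoglobulin genes 0.21 and 0.33, with 0.40 in meningeal CD8 T cells. The next settings were chosen after the data were seen. Without T cells that held endothelial, fibroblast, myeloid or neutrophil UMIs, Ly6c2 in meningeal CD4 T cells was at −1.89. Without the 5 cells richest in the gene, Ly6a was at 1.48 and 1.49 in CD4 and 2.77 and 2.63 in CD8 T cells, Ly6c1 at −3.17 in meningeal CD4 T cells, and Ly6c2 at −2.00 and 2.55 in CD4 T cells and 0.33 in choroid plexus CD8 T cells.

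Ccr7-negative over Ccr7-positive. Thinned to 1000 UMIs, Ly6c1 in young choroid plexus CD8 T cells reversed to 0.28, Ly6c2 in young CD8 T cells was at 0.87 and 0.74, and Ly6e at 0.64 in young meningeal CD4 and 0.45 and 0.0815 in young CD8 T cells. As the mean of each cell's CPM, Ly6c2 in young CD8 T cells was at 0.48 and 0.74. With Lef1 in place of Ccr7, Ly6c1 was at −0.52 and, reversed, 0.0586 in young CD4 T cells and −3.04 in choroid plexus CD8 T cells. Ly6c2 was at 1.13 and 0.80 in young CD8 T cells and reversed to 0.10 in aged meningeal CD8 T cells, 0.53 in aged choroid plexus CD4 T cells and −0.36 in the aged meningeal cells with neither coreceptor. Ly6e was at 0.64 and 0.31 in young meningeal CD4 and CD8 T cells and reversed to −0.13 in aged choroid plexus CD4 T cells. Without the 5 richest cells of each gate, Ly6c1 was at −2.00 and −2.65 in young CD4 T cells and 0 in aged choroid plexus CD8 T cells. Ly6c2 was then at 2.04 in aged and 0 in young choroid plexus CD4 T cells, 0.12 in aged and −0.15 in young meningeal CD8 T cells.

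The number of genes past the rule of size was 360, 278 and 360 in meningeal CD4, CD8 and neither T cells and 421, 233 and 360 in those of the choroid plexus. With a log2 limit of 0.58 it was 1124, 1009, 1158, 1124, 1052 and 1029 in the same order, and with a pseudocount of 50 CPM 85, 60, 77, 113, 37 and 70. With a pseudocount of 1 CPM it was 651, 575, 784, 653 and 609 in all but choroid plexus CD4 T cells, and with no minimum of UMIs 660 in those. Scrublet scores and cell filters moved no ratio of CD4 or CD8 T cells with age. Counts of under 20 UMIs limit Ly6c1 in CD8 T cells and Ly6c2 in Ccr7-positive CD4 T cells.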

Other observations

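Cells with UMIs of both Cd4 and Cd8a or Cd8b1 entered no class, and only the values over all T cells of a library include them. In the order of libraries used above (18, 16, 30 and 33 cells) Ly6a was at 408, 225, 1175 and 1546 CPM and Ly6e at 1499.5, 1384, 1714 and 2158 CPM. Ly6c1 was at 204, 182, 56.0 and 35.4 CPM and Ly6c2 at 14.6, 322, 217 and 177 CPM. Both aged pools had more Ly6a and less Ly6c1 than both young pools. The Ly6c2 level of the young meningeal cells was that of 1 UMI.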
